A study of Arabidopsis thaliana with 12 samples.

Results

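The genes described here are those whose annotation in the count table names a eukaryotic-type ribosomal protein, that is, a nuclear gene with a description such as "ribosomal protein L19e" or "ribosomal protein L35Ae". The rule took 65 of the 32673 rows, all on chromosomes 1 to 5, and 62 of them had a count in some library. RNA was sequenced from whole seedlings, 7 days old, of Arabidopsis thaliana accession Nossen (No-0), in 4 groups of 3 libraries. The groups were 35S::KNAT1 seedlings given paclobutrazol and GA3, 35S::KNAT1 seedlings given paclobutrazol alone, and wild-type seedlings in the same pair of media. All seedlings were first held for 18 h in liquid medium with 10 μM paclobutrazol (PAC), an inhibitor of gibberellin synthesis. They then spent 5 h either in 10 μM PAC plus 100 μM of the gibberellin GA3, or in PAC alone, so no group was free of PAC. The 35S::KNAT1 line expresses KNAT1, a class I KNOX homeodomain transcription factor, from the 35S promoter, which is active in most cell types. The labels do not say whether the replicates came from separate cultures or the line from several transformants, so each p-value measures the spread between these libraries.

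Ribosomes carry out protein synthesis. Each has a small subunit, which reads the mRNA, and a large subunit, which forms the peptide bonds, and both are built from rRNA and a fixed set of proteins. In plants every cytosolic ribosomal protein is encoded by a small family of paralogous genes, and the transcripts are abundant in growing tissue. The proteins are joined to the rRNA in the nucleolus by assembly factors that leave before the ribosome works.

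The label of the list did not hold for all its members. By the domain notes of the reference annotation (RefSeq, TAIR10.1), 47 rows encoded cytosolic ribosomal proteins, 31 of the large and 16 of the small subunit, belonging to 22 different proteins. These are called the core genes. They include AT2G44860, assigned only to the L24e family, which in yeast also holds an assembly factor. Whether this gene encodes a ribosomal protein or such a factor was not settled here. Of the other 18, 5 were L18ae family genes without a ribosomal domain, 4 were L34e-like genes without the L34e conserved site, and 4 encoded RNA-binding proteins of the Nhp2 type, the family of a small nucleolar RNP subunit. The rest were an NSA2-type assembly factor gene (AT5G06360), a gene for a bacterial-type L15 protein (AT5G64670), a ribonuclease P-related gene (AT4G01790), and 2 genes with no ribosomal function in their notes (AT1G12960 and AT5G02740).

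The coding sequences of the L32 gene pair are shown first, because the largest difference between the genotypes among the core genes lay in this pair, and a read can be assigned to 1 of the 2 genes only where they differ. L32 is a protein of the large subunit. The stretch runs from coding base 169 to base 258 in both genes, 5′ to 3′, and the capitals mark the 15 of 90 bases that differ between them.
AT5G46430 (chr5:18834078-18834167, + strand): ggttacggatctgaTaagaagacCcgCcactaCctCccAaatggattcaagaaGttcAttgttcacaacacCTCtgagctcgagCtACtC
AT4G18100 (chr4:10035859-10035948, - strand): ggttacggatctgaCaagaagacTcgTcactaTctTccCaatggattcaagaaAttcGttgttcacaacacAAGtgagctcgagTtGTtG
Both coding sequences had 402 bases, of which 44 differed (89.1% identity), and neither transcript shared a run of 50 bases with another place in the genome or another transcript. Among all 65 transcripts, 49 shared no such run. The most affected were AT1G23290 (L27a), with 98.2% of its 50-base runs also in the overlapping gene AT1G23300 on the other strand, and AT1G29965 (L18a), with 580 of its 725 runs also in the overlapping gene AT1G29970 on the same strand. Values of those 2 genes are uncertain, since the sources used here do not say whether the counting used strand. Of the genes with a call below, AT5G15520 and AT2G44860 shared 15.1% and 8.98% of their transcript bases with a gene on the opposite strand, and AT1G53560 shared 9.80%.

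A pair of upstream windows shows the promoter motifs for which plant ribosomal protein genes are known. Each holds the 250 bases before the annotated start of a gene, 5′ to 3′ on the gene's strand, and capitals mark site II elements (TGGGCC or TGGGCT) and telo-boxes (AAACCCTA), searched on both strands.
AT2G44860 (chr2:18502563-18502812, - strand): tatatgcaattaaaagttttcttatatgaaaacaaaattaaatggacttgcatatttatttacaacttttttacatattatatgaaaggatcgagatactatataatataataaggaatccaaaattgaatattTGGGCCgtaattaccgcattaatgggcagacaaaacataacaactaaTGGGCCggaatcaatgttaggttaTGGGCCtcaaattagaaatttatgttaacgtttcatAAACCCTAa
AT3G04920 (chr3:1360587-1360836, + strand): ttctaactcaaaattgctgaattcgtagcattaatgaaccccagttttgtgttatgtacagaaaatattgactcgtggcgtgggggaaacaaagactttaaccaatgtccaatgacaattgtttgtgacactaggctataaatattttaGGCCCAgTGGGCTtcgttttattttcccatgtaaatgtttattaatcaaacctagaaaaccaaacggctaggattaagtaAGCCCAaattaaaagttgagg
The first belongs to a gene of the L24e family, which its reference note places in the large subunit and which in yeast also includes the assembly factor Rlp24, and holds 3 site II elements and a telo-box 9 bases before the start. The second belongs to a gene for S24, a small subunit protein, and holds 3 site II elements and no telo-box. A site II element lay in 33 of the 47 core windows (70.2%), against 5264 of the 27443 windows of all nuclear protein-coding genes (19.2%). A telo-box lay in 13 core windows (27.7%), against 1231 of all windows (4.49%), and both motifs lay in 11 core windows (23.4%), against 374 of all (1.36%). The 18 genes outside the core had a site II element in 6 windows and a telo-box in 4. No match to either motif lay in the windows of the L32 pair, nor in 10 other core windows. These matches describe letters and are not known binding sites.

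Library totals were 9232836 to 14053594 counts, and the 65 genes took 1.48% to 1.58% of counts in 35S::KNAT1 seedlings in PAC+GA3, 1.52% to 1.59% in 35S::KNAT1 in PAC, 1.24% to 1.505% in wild type in PAC+GA3 and 1.34% to 1.47% in wild type in PAC. In 3 libraries, 35S::KNAT1 PAC+GA3 replicate 1 and wild-type PAC replicates 2 and 3, the rRNA gene AT3G41768 took 0.347% to 1.43% of counts, against 0.1103% to 0.197% in the other 9, and these are called the rRNA-rich libraries. Levels are given as CPM, counts scaled by library size and TMM, and, to set genes against each other, as CPM per kb of the longest transcript, averaged over the 12 libraries. In that unit the 43 core genes that passed the filter on low counts ranged from 19.4 to 1100.3 with a median of 262, while the 17 others that passed ranged from 3.27 to 127 with a median of 28.4. Of the core genes, 37 lay above every gene outside the core.

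The highest level was that of the S8 gene AT5G20290, at 1100.3 CPM per kb, followed by the L19 gene AT1G02780 at 1064, the L32 gene AT4G18100 at 714, the L7a gene AT3G62870 at 622 and the L31 gene AT5G56710 at 594. S8 is a small subunit protein and the other 4 are large subunit proteins. AT5G20290 had 1227 ± 115 CPM in 35S::KNAT1 seedlings in PAC+GA3, 1229.8 ± 57.9 in 35S::KNAT1 in PAC, 1217 ± 110.1 in wild type in PAC+GA3 and 1242 ± 91.1 in wild type in PAC (SD, n = 3 each). AT1G02780 had 1184 ± 79.9 CPM in 35S::KNAT1 in PAC+GA3, 1166 ± 26.2 in 35S::KNAT1 in PAC, 1185 ± 101 in wild type in PAC+GA3 and 1183 ± 96.1 in wild type in PAC (SD, n = 3 each). AT5G20290 was above AT1G02780 in each of the 12 libraries, by a small margin. The lowest levels were those of AT1G54217 (3.27 CPM per kb), AT5G19025 (3.32), AT4G01790 (4.56), AT3G06180 (4.69) and AT5G15260 (7.34), all outside the core.

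**Figure D1:**
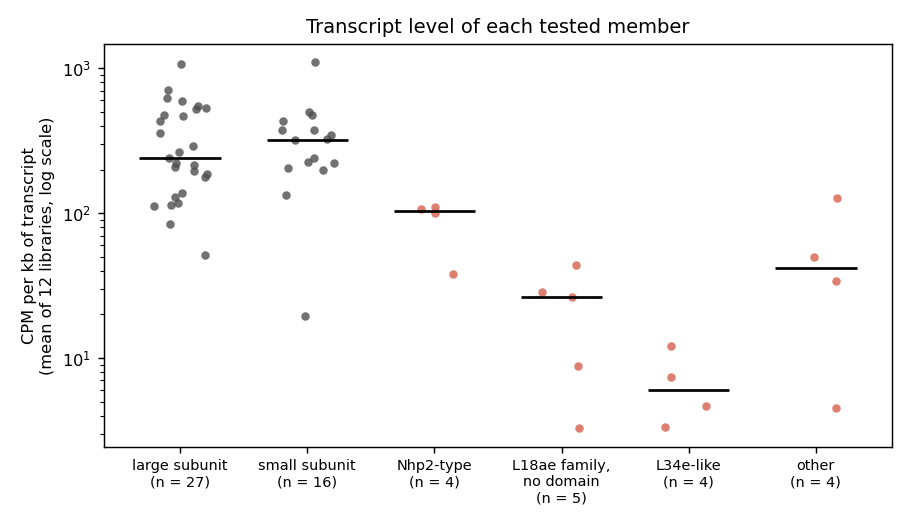
Each point is a gene that passed the filter on low counts, placed by its level in CPM per kb of transcript (mean of 12 libraries, log scale), with a bar at the median of each class. The core genes (grey) reach 1100.3 and the genes outside the core (red) stay at or below 127.

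The filter removed 5 genes. AT1G12960, AT2G47570 (L18) and AT4G16030 (L19) had no count in any library, and AT1G36240 (L30) and AT3G48960 (L13) had 4 counts each over all 12 libraries. All but AT1G12960 are core genes, so 43 of the 47 core genes and 60 of the 65 genes could be tested. The tested genes had between 418 and 165841 counts over the 12 libraries.

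Summed over the core genes, the TMM-scaled level was nearly equal in the 4 groups. The sum was 14150 ± 821 CPM in 35S::KNAT1 seedlings in PAC+GA3, 14273 ± 264 in 35S::KNAT1 in PAC, 13789 ± 1413 in wild type in PAC+GA3 and 13656 ± 917 in wild type in PAC (SD, n = 3 each). The ranges of the groups overlapped. This depends on the scaling. As a share of all counts, the 65 genes took 1.52% to 1.59% in 35S::KNAT1 in PAC, against 1.34% to 1.47% in wild type, without overlap. In PAC+GA3 these shares overlapped, with 1.48% to 1.58% in 35S::KNAT1 and 1.24% to 1.505% in wild type. The libraries of wild type in PAC+GA3 spread most, between 12299 and 15111 CPM, which covered every other library. The ratio of large over small subunit transcripts was 1.58 to 1.63 in each of the 12 libraries. Whole seedlings were measured, so fewer cells of a type and less RNA per cell cannot be told apart.

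**Figure D2:**
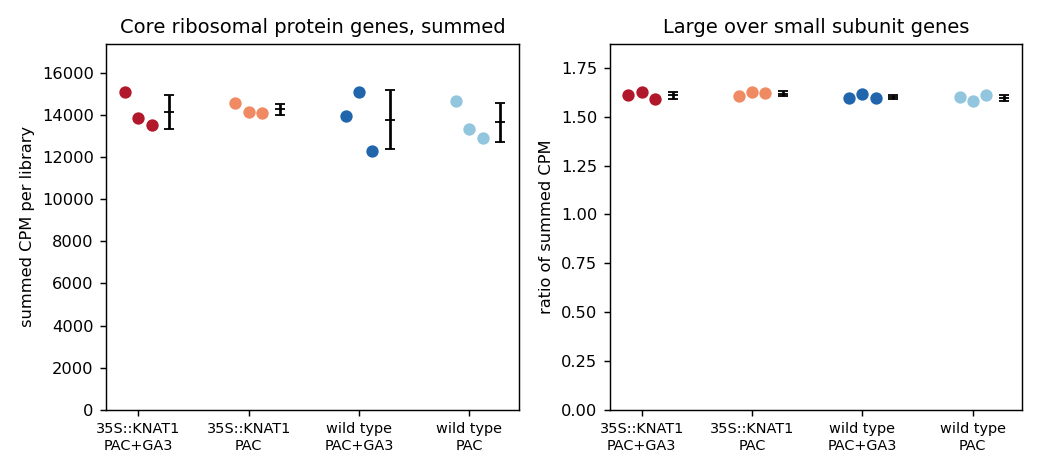
The left panel shows the summed CPM of the core genes and the right panel the ratio of large to small subunit genes, 1 point per library, with mean ± SD (n = 3) beside each group. The groups overlap in the TMM-scaled sum, and all 12 ratios lie between 1.58 and 1.63.

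The effect of 5 h of GA3 was examined within each genotype. In 35S::KNAT1 seedlings, none of the 60 tested genes passed the test (edgeR quasi-likelihood test, Benjamini-Hochberg adjusted p below 0.05 over 19879 genes), against 0.111% of all genes (0.0151% higher and 0.0956% lower). In wild type, again 0 of 60 passed, against 0.0453% of all genes (0.0151% higher and 0.0302% lower). With the replicate number as a block, 0 of 60 passed in either genotype, against 0.407% of all genes in 35S::KNAT1 and 0.473% in wild type. The DESeq2 Wald test also called 0 in both. At an unadjusted edgeR p below 0.05 were 2 of the 60 genes in 35S::KNAT1 and 1 in wild type, beside 5.61% and 8.78% of all genes. The median log2 difference of the 60 genes, PAC+GA3 minus PAC, was -0.02 in 35S::KNAT1 and 0.03 in wild type, beside -0.001 and 0.003 for all genes tested.

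For the core genes the bounds were narrow. All 43 lay between -0.23 and 0.10 (log2) in 35S::KNAT1 and between -0.08 and 0.11 in wild type. The 95% intervals of all 43 lay within 0.5 of zero in both genotypes, and their widest bounds were 0.45 in 35S::KNAT1 and 0.37 in wild type. A GA3 effect of 0.5 or more on the log2 scale thus lay outside the interval of every core gene. The median half-width of these intervals was 0.20 in both genotypes.

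The libraries in PAC+GA3 and in PAC did not overlap for 9 of the 60 genes in 35S::KNAT1 (15%, against 12.9% of all genes) and for 1 of 60 in wild type (1.67%, against 11.8% of all genes). The smallest p in 35S::KNAT1 belonged to the S19 gene AT5G15520, with 21.2, 21.9 and 20.3 CPM in PAC+GA3, against 26.5, 23.5 and 24.3 CPM in PAC (log2 difference -0.23 ± 0.10 SE, edgeR adjusted p = 0.869). All 3 GA3 libraries were below all 3 PAC libraries, but the difference did not pass the test. In wild type the smallest p belonged to AT1G17080, an L18ae family gene outside the core, with 40.7, 47.1 and 39.1 CPM in PAC+GA3 and 35.1, 36.8 and 32.2 CPM in PAC (log2 difference 0.28 ± 0.09 SE, edgeR adjusted p = 0.350). Next in p were AT3G14595 and AT5G20160 in 35S::KNAT1 (log2 differences 0.26 and -0.17), and AT3G14595 and AT5G19025 in wild type (0.21 and 0.36), none past the test.

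The difference between the genotypes in their response to GA3 was tested as an interaction. It was called for 0 of 60 genes, as for 0% of all genes, and for none of the 60 by DESeq2. None of them had an unadjusted edgeR p below 0.05, beside 1.83% of all genes. The widest 95% bound among the core genes was 0.54 (log2). The smallest p values belonged to AT5G20160, AT5G15520 and AT3G06180, with interaction estimates of -0.23, -0.24 and -0.38 and edgeR adjusted p of 1.00 for each.

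**Figure D3:**
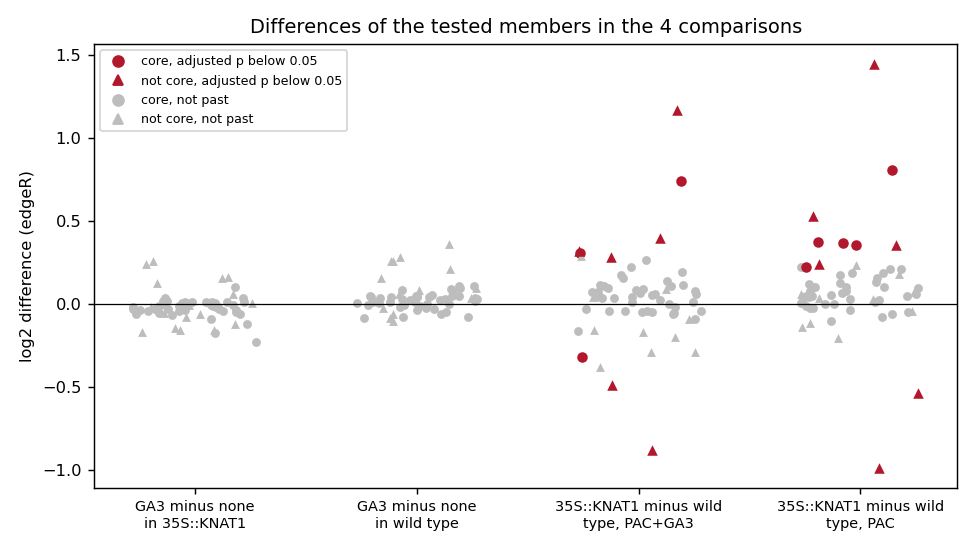
Each point is the log2 difference (edgeR) of 1 of the 60 tested genes in 1 of 4 comparisons, with circles for the core, triangles for the others, and red for an adjusted p below 0.05. The GA3 comparisons hold no red point, and in the genotype comparisons most red points are outside the core.

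The genotypes were then compared within each medium. KNAT1 itself had 399 to 483 CPM in 35S::KNAT1 seedlings in PAC+GA3 and 389 to 449 in PAC, against 21.6 to 22.5 CPM in wild type in PAC+GA3 and 17.6 to 24.6 in PAC, so the libraries matched their genotype labels. Under PAC, 9 of the 60 genes rose and 2 fell in 35S::KNAT1 (18.3%, against 25.2% of all genes by edgeR, 12.3% higher and 12.9% lower). Under PAC+GA3, 6 rose and 3 fell (15%, against 25.5% of all genes, 12% higher and 13.6% lower). Of the 43 core genes, 5 rose and 0 fell under PAC, and 2 rose and 1 fell under PAC+GA3. The median absolute log2 difference of the core genes was 0.080 under PAC and 0.067 under PAC+GA3, beside 0.203 for all genes in both media.

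The counts of calls depended on single libraries and on the scaling, as did those of all genes. In the main fit, 2443 of all 19879 genes rose and 2574 fell under PAC, and 2382 rose and 2695 fell under PAC+GA3. The fit without the 3 rRNA-rich libraries kept only 1 wild-type PAC library, so its counts of calls are not given. It is among the alternatives counted for single genes below. Without wild-type PAC replicate 2, or without replicate 3, 4 of the listed genes rose and 2 fell under PAC. Over all genes, 1911 of 20065 rose and 2114 fell without replicate 2, and 1840 of 20054 rose and 2018 fell without replicate 3. Without 35S::KNAT1 PAC replicate 1, 5 listed genes rose and 2 fell, beside 1914 and 1984 of all 20083 genes. Without 35S::KNAT1 PAC+GA3 replicate 1, 3 listed genes rose and 2 fell under PAC+GA3, beside 1919 and 2179 of all 20053 genes. Scaling by total counts put the median of all genes at 0.10 under PAC and 0.12 under PAC+GA3. With it, 18 listed genes rose and 2 fell under PAC and 12 rose and 2 fell under PAC+GA3. Over all 19879 genes, 3865 rose and 1872 fell under PAC, and 4007 rose and 2019 fell under PAC+GA3.

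The largest difference among the core genes was that of the L32 gene AT5G46430 (chr5:18833267-18834564 in TAIR10, + strand), whose transcript was 1.75-fold higher in 35S::KNAT1 under PAC and 1.67-fold higher under PAC+GA3. It had 251, 257 and 251 CPM in 35S::KNAT1 libraries in PAC+GA3 and 253, 252 and 264 CPM in PAC. The wild-type libraries had 154, 170.1 and 130.2 CPM in PAC+GA3 and 161, 145 and 134 CPM in PAC. The lowest of the 6 35S::KNAT1 libraries was above the highest of the 6 wild-type ones. The log2 difference was 0.81 ± 0.09 (SE) under PAC (edgeR adjusted p = 5.26e-06) and 0.74 ± 0.09 under PAC+GA3 (edgeR adjusted p = 1.31e-05), and both calls held under all 22 alternative settings.

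The other L32 gene, AT4G18100 (chr4:10035485-10036541, - strand), is the more abundant of the pair. It had 630.1, 560.2 and 545 CPM in 35S::KNAT1 libraries in PAC+GA3 and 607, 589 and 588 CPM in PAC, against 594, 673 and 519 CPM in wild type in PAC+GA3 and 605, 585 and 537 CPM in PAC. The groups overlapped. Its log2 difference was 0.05 ± 0.10 (SE) under PAC and -0.04 ± 0.10 under PAC+GA3 (edgeR adjusted p = 0.775 and 0.811), with 95% intervals of -0.16 to 0.26 and -0.25 to 0.17.

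The share of L32 transcripts that came from AT5G46430 was thus larger in 35S::KNAT1. It was 28.5%, 31.4% and 31.5% in 35S::KNAT1 libraries in PAC+GA3 and 29.4%, 29.97% and 30.99% in PAC. In wild type it was 20.6%, 20.2% and 20.1% in PAC+GA3 and 20.97%, 19.9% and 19.99% in PAC. The genotypes did not overlap, and the means differed by 9.85 points under PAC and 10.2 points under PAC+GA3, while GA3 moved the mean by 0.364 points in 35S::KNAT1 and 0.00565 points in wild type. Summed over both genes, L32 had 831 ± 44.4 CPM in 35S::KNAT1 seedlings in PAC+GA3 and 852 ± 9.62 in PAC, against 747 ± 96.7 in wild type in PAC+GA3 and 722 ± 47.9 in PAC (SD, n = 3 each). The summed level did not overlap between genotypes under PAC and did under PAC+GA3. This was not particular to L32. Of the 18 core proteins with several genes in the list, 8 were higher without overlap under PAC and 0 under PAC+GA3. The ratio of L32 under PAC, 1.18, was the highest of the 18, beside a median of 1.05.

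**Figure D4:**
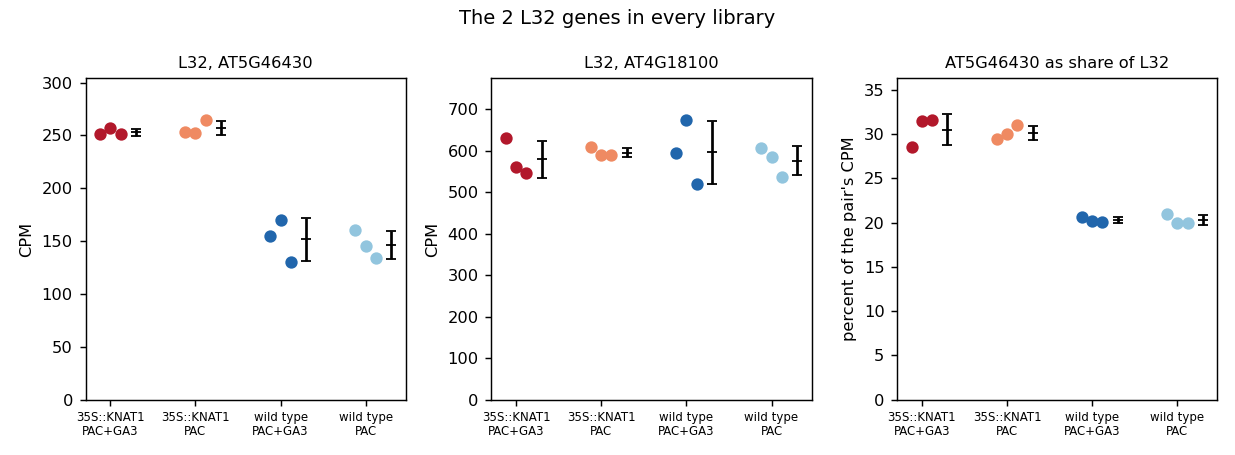
Points are libraries (CPM in the left and middle panels, percent of the pair's CPM on the right) with mean ± SD (n = 3). AT5G46430 is higher in all 35S::KNAT1 libraries than in the wild-type ones, AT4G18100 overlaps between the groups, and the share is 28.5% to 31.5% in 35S::KNAT1 and 19.9% to 20.97% in wild type.

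In the other core families the shares of paralogs moved by smaller amounts. Shares were computed for the 16 proteins with several expressed genes in the list, and genes of the same protein that the rule did not take were not counted. In 15 of the 16 proteins 1 paralog had the largest share in all 12 libraries. Outside L32, the largest genotype difference in a paralog's share was 4.004 points under PAC and 3.52 points under PAC+GA3, both for the L35a gene AT1G41880. That gene supplied 61.2% ± 1.8 of L35a CPM in 35S::KNAT1 in PAC+GA3 and 60.9% ± 1.0 in PAC, against 64.7% ± 1.0 in wild type in PAC+GA3 and 64.9% ± 1.5 in PAC (SD, n = 3 each). L35a is a protein of the large subunit. Of the 1243 50-base runs of AT1G41880, 131 (10.5%) also lie in AT3G55750, a gene that the rule did not take. How shared reads were counted is not known, so this share is less certain. Of the 15 proteins other than L32, 3 had a paralog share without overlap between media in 35S::KNAT1 (L19, L36 and S19). In wild type it was 1 (L36). Between the genotypes it was 6 under PAC (L19, L27a, L31, L35a, S24 and S7). Under PAC+GA3 it was 9 (L19, L27a, L30, L31, L35a, L7a, S19, S24 and S26). The L31 gene AT2G19740, for example, supplied 13.5% ± 0.32 of L31 CPM in 35S::KNAT1 in PAC+GA3 and 13.3% ± 0.77 in PAC, against 11.4% ± 0.26 in wild type in PAC+GA3 and 11.1% ± 0.46 in PAC (SD, n = 3 each). Shares in other gene families were not computed, so these counts have no background. For CPM, the genotypes did not overlap in 40.4% of all genes under PAC and 38.6% under PAC+GA3. Between media it was 12.9% in 35S::KNAT1 and 11.8% in wild type. The L27a shares include the uncertain gene AT1G23290, and the S26 genes AT2G40510 and AT2G40590 have 134 of their 50-base runs in common.

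The other core genes that passed the test changed by less than L32. The L31 gene AT2G19740 had 111, 99.5 and 96.6 CPM in 35S::KNAT1 in PAC+GA3 and 108, 104 and 93.1 in PAC, against 79.8, 94.1 and 74.1 in wild type in PAC+GA3 and 87.1, 73.6 and 74.3 in PAC. L31 is a large subunit protein, and in each medium the 35S::KNAT1 libraries lay above the wild-type libraries. The log2 difference was 0.37 ± 0.10 (SE) under PAC and 0.31 ± 0.10 under PAC+GA3 (edgeR adjusted p = 0.0102 and 0.0291). The call was lost under 3 of 22 alternatives under PAC, where the highest adjusted p was 0.362, and under 6 of 22 under PAC+GA3, where it was 0.134. The other L31 genes, AT4G26230 and AT5G56710, differed by 0.16 and 0.05 under PAC and did not pass.

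Under PAC alone, 3 further core genes rose. The L35a gene AT1G07070 had 42.8, 34.7 and 40.3 CPM in 35S::KNAT1, against 34.3, 29.4 and 27.5 CPM in wild type. The L24e family gene AT2G44860, whose upstream window is printed above, had 129, 106 and 109 CPM in 35S::KNAT1, against 102, 82.8 and 83.7 CPM in wild type. It counts as core by its note, and it may encode an assembly factor instead. The S24 gene AT3G04920, the other gene with a printed window, had 293, 290.4 and 303 CPM in 35S::KNAT1, against 254, 256 and 249 CPM in wild type. In each of the 3 genes the lowest 35S::KNAT1 library was above the highest wild-type one, by a small margin in the first 2. Their log2 differences were 0.37 ± 0.12, 0.36 ± 0.10 and 0.22 ± 0.08 (SE), with edgeR adjusted p of 0.0346, 0.0147 and 0.0435. Under PAC+GA3 they were 0.22, 0.26 and 0.14 and did not pass, and the interaction was called for none of them. The calls were lost under 5, 4 and 12 of 22 alternatives, with adjusted p up to 0.520, 0.517 and 0.308.

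The 1 core gene that fell was the S19 gene AT5G15520, under PAC+GA3, the core gene with the lowest level per length (19.4 CPM per kb). It had 21.2, 21.9 and 20.3 CPM in 35S::KNAT1, against 24.04, 30.5 and 24.7 CPM in wild type. All 3 35S::KNAT1 libraries lay below the wild-type libraries (log2 difference -0.32 ± 0.10 SE, edgeR adjusted p = 0.0307). The call was lost under 7 of 22 alternatives, with adjusted p up to 0.144. Under PAC the difference was -0.08. The other S19 gene in the list, AT3G02080, supplied 92.4% to 94.4% of their joint CPM in every library and differed by 0.01 under PAC and -0.05 under PAC+GA3.

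The remaining core genes, 38 under PAC and 40 under PAC+GA3, did not pass the test. Their log2 differences lay between -0.10 and 0.22 under PAC and between -0.16 and 0.26 under PAC+GA3, and no 95% bound among them went beyond 0.43 and 0.48. Their medians were 0.05 in both media. More core genes were positive than negative, 34 of 43 under PAC and 29 of 43 under PAC+GA3, beside 10060 and 10313 of 19879 genes tested. Under PAC the median of the 60 genes was -0.02 when the 3 rRNA-rich libraries were left out, against 0.07 with them. That fit kept only 1 wild-type PAC library, replicate 1. Its core sum was the highest of its group, 14686 CPM, against 13354 and 12928 in the 2 left out. Under PAC, the libraries of the genotypes did not overlap for 17 core genes, all higher in 35S::KNAT1 (39.5%, against 40.4% of all genes), and under PAC+GA3 for 4 higher and 1 lower (11.6%, against 38.6% of all genes). The shares of all genes cover both directions. Of the 19879 genes, 4089 were higher and 3938 lower without overlap under PAC, and 3858 higher and 3819 lower under PAC+GA3.

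Outside the core, 6 of the 17 tested genes passed under PAC and the same 6 under PAC+GA3 (35.3%, against 25.2% and 25.5% of all genes). The L18ae family genes without a ribosomal domain moved in both directions. AT1G54217 (chr1:20243921-20245527, - strand) had 5.05, 5.29 and 6.66 CPM in 35S::KNAT1 in PAC+GA3 and 5.60, 5.79 and 5.82 in PAC, against 1.97, 2.47 and 3.18 in wild type in PAC+GA3 and 1.99, 2.24 and 2.07 in PAC. The genotypes did not overlap, and the log2 difference was 1.45 ± 0.20 (SE) under PAC and 1.17 ± 0.20 under PAC+GA3 (edgeR adjusted p = 3.88e-05 and 0.000219). It was the largest rise among the 60 genes in both media, and the lowest in level per length.

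AT1G53560 (chr1:19984742-19985983, - strand), of the same family, fell. It had 19.7, 17.3 and 20.4 CPM in 35S::KNAT1 in PAC+GA3 and 16.5, 17.6 and 23.4 in PAC, against 35.4, 32.7 and 37.4 in wild type in PAC+GA3 and 38.6, 37.7 and 37.0 in PAC. The highest 35S::KNAT1 library was below the lowest wild-type one (log2 difference -0.98 ± 0.11 SE under PAC and -0.88 ± 0.11 under PAC+GA3, edgeR adjusted p = 4.20e-06 and 1.38e-05). AT3G14595 also fell, with 21.4, 22.6 and 27.3 CPM in 35S::KNAT1 in PAC+GA3 and 20.5, 17.7 and 21.4 in PAC, against 32.5, 37.5 and 30.01 in wild type in PAC+GA3 and 29.99, 30.7 and 25.3 in PAC. Its libraries did not overlap between genotypes within a medium, and the log2 differences were -0.53 and -0.49 (SE 0.12 each, edgeR adjusted p = 0.00287 and 0.00449). The calls of these 3 genes held under all 22 alternatives in both media. The other 2 genes of the family, AT1G17080 and AT4G26060, differed by 0.03 and -0.11 under PAC and by -0.09 and -0.29 under PAC+GA3 and did not pass. Any 2 of the 5 coding sequences were 55.1% to 69.9% identical over the shorter one.

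Of the 4 Nhp2-type genes, 2 rose in both media. AT4G12600 had 121, 111 and 103 CPM in 35S::KNAT1 in PAC+GA3 and 131, 122 and 120.0 in PAC, against 77.6, 102 and 75.3 in wild type in PAC+GA3 and 91.3, 84.9 and 82.1 in PAC. AT5G08180 had 138, 137 and 132 CPM in 35S::KNAT1 in PAC+GA3 and 141, 144 and 139.6 in PAC, against 116, 123 and 96.0 in wild type in PAC+GA3 and 111, 109.7 and 111 in PAC. Within each medium the 35S::KNAT1 libraries were above the wild-type libraries for both genes. AT4G12600 differed by 0.53 ± 0.10 (SE) under PAC and 0.40 ± 0.10 under PAC+GA3 (edgeR adjusted p = 0.000922 and 0.00796), and AT5G08180 by 0.36 and 0.29 (SE 0.08 each, edgeR adjusted p = 0.00421 and 0.0177). The calls of AT4G12600 were lost only in the fit without the 3 rRNA-rich libraries, which kept 1 wild-type PAC library. Those of AT5G08180 were lost under 1 alternative under PAC, the same fit, and under 5 under PAC+GA3. The other 2, AT4G22380 and AT5G20160, differed by 0.23 and 0.06 under PAC and by 0.07 and -0.17 under PAC+GA3 and did not pass.

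The gene for a bacterial-type L15 protein, AT5G64670, also rose. It had 80.1, 69.1 and 68.8 CPM in 35S::KNAT1 in PAC+GA3 and 75.3, 73.9 and 69.5 in PAC, against 63.2, 55.7 and 55.7 in wild type in PAC+GA3 and 63.9, 61.4 and 59.5 in PAC. The genotypes did not overlap (log2 difference 0.24 under PAC and 0.32 under PAC+GA3, SE 0.08 each, edgeR adjusted p = 0.0410 and 0.00855). The call was lost under 6 of 22 alternatives under PAC (adjusted p up to 0.355) and 2 of 22 under PAC+GA3 (up to 0.0830). The NSA2-type gene AT5G06360 had log2 differences of 0.18 and 0.09 and did not pass, and none of the 4 L34e-like genes passed in either medium.

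**Figure D5:**
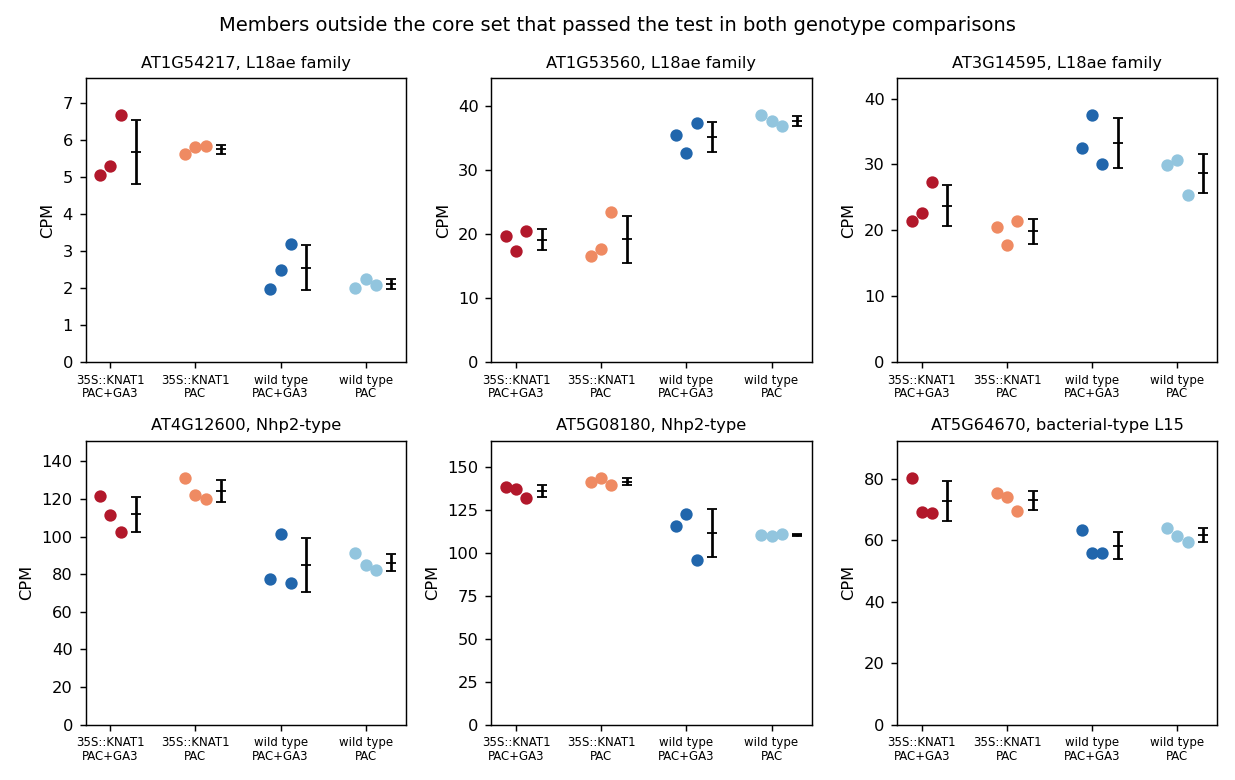
Each panel shows 1 of the 6 genes outside the core that passed the test in both genotype comparisons, as CPM per library with mean ± SD (n = 3). AT1G54217, AT4G12600, AT5G08180 and AT5G64670 are higher in 35S::KNAT1, and AT1G53560 and AT3G14595 are lower.

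Other ribosomal protein genes, which the rule did not take, were set beside these. Of 121 tested genes with a cytosolic ribosomal protein note, 8 rose and 3 fell under PAC (median log2 difference 0.05) and 6 rose and 4 fell under PAC+GA3 (median 0.01). Both sets of cytosolic genes thus had a share of calls below that of all genes, 9.09% and 8.26% here and 11.6% and 6.98% in the core. Of 35 tested genes with an organelle ribosomal protein note, 1 rose and 9 fell under PAC (28.6%, against 25.2% of all genes, median -0.15), and 2 rose and 16 fell under PAC+GA3 (51.4%, against 25.5% of all genes, median -0.21). Of all genes, 12.9% fell under PAC and 13.6% under PAC+GA3. The genes were also split by description instead of reference note. Of 21 tested organelle-type genes, 1 rose and 3 fell under PAC (19.05%, median -0.12). Under PAC+GA3, 0 rose and 6 fell (28.6%, median -0.18). This share was below that of all genes under PAC and slightly above it under PAC+GA3. Of the other 226 tested genes, 17 rose and 17 fell under PAC, and 16 rose and 25 fell under PAC+GA3. Their share was below that of all genes in both media. No test of the difference between the sets was made.

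Assembly factors were set beside the core as well. Of 29 listed genes of ribosome biogenesis and the nucleolus, 11 rose and 0 fell under PAC (median 0.27, beside 0.004 for all genes), and 8 rose and 0 fell under PAC+GA3 (median 0.25, beside 0.01), while 12.3% and 12% of all genes rose. The smallest p belonged to NOP58 (AT5G27120), a core protein of box C/D small nucleolar RNPs, at 158 ± 13.7 CPM in 35S::KNAT1 in PAC+GA3 and 178 ± 16.6 in PAC, against 95.9 ± 12.7 in wild type in PAC+GA3 and 102 ± 12.1 in PAC (SD, n = 3 each). Its log2 difference was 0.80 ± 0.11 (SE) under PAC and 0.72 ± 0.11 under PAC+GA3 (edgeR adjusted p = 2.93e-05 and 9.11e-05). NRPA1, the largest subunit of RNA polymerase I, differed by 0.42 and 0.69, the Pumilio protein gene APUM24 by 0.44 and 0.52, and the nucleolin gene NUC2 by 1.63 and 1.83, and all passed in both media. Under GA3 none of the 29 passed in either genotype, with 27 of 29 differences negative in 35S::KNAT1 (median -0.13, 4 at an unadjusted edgeR p below 0.05, beside 5.61% of all genes) and 28 of 29 in wild type (median -0.16, 7 at an unadjusted p below 0.05, beside 8.78% of all genes).

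Other genes of the translation machinery and its control were set beside these, where 25.2% of all genes passed under PAC and 25.5% under PAC+GA3. Of 21 translation factors, 0 rose and 1 fell in both media (4.76%). This was ELF5A-1, an eIF5A gene, with log2 differences of -0.64 under PAC and -0.56 under PAC+GA3 (edgeR adjusted p = 0.00304 and 0.00705). None of the 3 RACK1 genes, whose proteins bind the small subunit, passed. Of 9 genes of the TOR pathway, which controls ribosome synthesis, 22.2% passed under PAC and 33.3% under PAC+GA3. S6K2 rose in both media (0.41 and 0.40), LST8-1 fell in both (-0.26 and -0.28), and S6K1 fell under PAC+GA3 (-0.23, edgeR adjusted p = 0.0477). Of 5 genes for proteins that bind site II elements or telo-boxes, 1 rose under PAC (20%) and 0 passed under PAC+GA3. The gene that rose was TRB1 (0.30, edgeR adjusted p = 0.0198).

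Some markers of tissues moved with the genotype, and their part in these differences was not tested. Of all genes, 12.3% rose and 12.9% fell under PAC, and 12% rose and 13.6% fell under PAC+GA3. All 7 green tissue genes fell in both media (median -0.88 under PAC and -0.97 under PAC+GA3), and their summed level was 18714 to 25138 CPM in 35S::KNAT1 in PAC+GA3 and 18339.5 to 24455.5 in PAC, against 37662 to 50636 in wild type in PAC+GA3 and 38130 to 41176 in PAC. Of 4 root and root hair genes, 2 rose in both media and the other 2 did not pass. The sum of the 4 was 36.1 to 56.6 CPM in 35S::KNAT1 in PAC+GA3 and 30.8 to 37.5 in PAC. In wild type it was 17.6 to 34.2 CPM in PAC+GA3 and 18.8 to 30.1 in PAC. None of 8 genes of dividing cells passed, with sums of 211 to 232 CPM in 35S::KNAT1 in PAC+GA3 and 204 to 217 in PAC, against 203 to 243 in wild type in PAC+GA3 and 193 to 219 in PAC. Of the 3 shoot meristem genes, STM fell (-1.38 and -1.22), WUS had 0 counts and CLV3 averaged 0.0299 CPM or less in every group.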

How the data were processed

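RNA-seq libraries of whole seedlings were analysed from raw counts per gene, which the authors deposited as 1 table with a column per library. Per the submitters' processing notes, the build was TAIR10, and the tools named, with no roles, were edgeR 3.0.2, DESeq2 1.16.1, TopHat2 2.1, FastQC 0.11.5 and cutadapt 1.8.3. No source used here names the tool that counted the reads or says whether strand was used. Per the labels' protocols, extraction was by RNeasy and Trizol, and both an unstranded and a stranded TruSeq kit are named. How shared reads were counted is unknown. Reads came from Nossen, while the build is that of Columbia.

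The members and lists were chosen with earlier results of these data known. Tests of the deposited counts used edgeR 4.0.16 (R 4.3.3) with filterByExpr (minimum count 10, 19879 genes kept), TMM scaling and 1 robust quasi-likelihood model with 4 group means over all 12 libraries. Genes were called at an adjusted p below 0.05 over all genes. SEs are log2 differences divided by the root of F, and intervals are at 95%. CPM values are TMM-scaled, and transcript lengths, notes and sequences are from RefSeq (TAIR10.1), in which all 65 members were found. Named genes were the called members without overlap between libraries (up to 12 in each direction), the 3 smallest p where none was called, the 5 highest and 5 lowest levels, families called in both directions, up to 4 genes per list, and the filtered members. AT4G22380, AT5G06360 and the paralogs of called genes were named after their values were seen. No pair of replicates matched within sampling noise.

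Deviations of same-numbered libraries had correlations of 0.169, 0.12 and 0.203 (35S::KNAT1, GA3 and PAC) and 0.359, 0.17 and 0.288 (wild type, GA3 and PAC). Between genotypes they were 0.25, 0.22 and 0.103 under PAC and 0.134, -0.029 and 0.079 under PAC+GA3. Most of these were positive. The labels state no pairing. Alternatives tried were scaling by total counts, by DESeq2's size factors or by TMM without the members, a filter of 5 CPM in 3 libraries or none at all, DESeq2 1.42.0, a fit of the groups compared, the replicate block, removal of rRNA and organelle genes, and leaving out 3 libraries of high rRNA share or each library in turn.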

Additional observations from a re-analysis of the deposited data

How the results depend on the processing

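For the GA3 comparisons and the interaction, the count of members called was 0 under every alternative run (a fit of only the groups compared could not be made for the interaction). Total-count scaling gave 20 members called under PAC, 18 of them higher and 12 in the core, and 14 called under PAC+GA3, 12 of them higher and 8 in the core, with a median log2 difference of 0.15. The fit without the 3 libraries of high rRNA share kept only 1 wild-type PAC library, so its calls are not counted here. Calls over all genes also moved with the scaling and with single libraries, as given above. Leaving out 1 library at a time gave, under PAC, 6 to 13 members called, 4 to 11 higher, 2 lower and 1 to 6 in the core, with medians of 0.04 to 0.13, and under PAC+GA3 5 to 11 called, 3 to 9 higher, 2 to 4 lower and 1 to 5 in the core, with medians of -0.03 to 0.10. The lowest core count, 1, came without wild-type PAC replicate 2 or 3 under PAC, and without 35S::KNAT1 PAC+GA3 replicate 1 or 2 under PAC+GA3. Without 35S::KNAT1 PAC replicate 1 or 3 the core count under PAC was 2 or 3, and without wild-type PAC+GA3 replicate 2 that under PAC+GA3 was 5. With the replicate block 12 members rose and 2 fell under PAC, beside 31% of all genes called. Under PAC+GA3, 7 rose and 3 fell, beside 31.7% of all genes called. The calls of the GA3 comparisons stayed at 0. The cause of these shifts was not tested. Only 3 libraries a group limit what could be called, and the widest 95% bound of a core gene was 0.54 in the interaction.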
